A study of Mus musculus with 2 samples.

Results

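The mitochondrial ribosomal protein genes were taken as the protein-coding genes of GENCODE M21 whose symbol is Mrpl or Mrps followed by a number. All 78 of them are among the 52366 genes of the deposited table. Levels were examined in 24 single mouse pseudoblastocysts, 6 at each of 4 stages of origin, all collected at 96 h post-insemination (hpi). Oocytes of superovulated B6D2F1 females had been fertilized in vitro with ICR sperm, and the zona pellucida was removed with an enzyme from every embryo. The 1C embryos grew from whole zygotes freed of the zona at 5 hpi, and the 2CB, 4CB and 8CB embryos grew from single blastomeres that were isolated from 2-cell embryos at 24 hpi, from 4-cell embryos at 48 hpi and from 8-cell embryos at 48 hpi. No genetic change or drug treatment is given for any group. They were picked because they held a cavity, without a check for an inner cell mass (ICM), and which of them were sisters from 1 parental embryo is not stated, so p-values measure the spread between these embryos.

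Mitochondria carry their own ribosome, which makes the hydrophobic core subunits of the respiratory chain and of ATP synthase from mRNAs of mitochondrial DNA. Its RNAs are encoded in the mitochondrion, but all of its proteins are encoded in the nucleus, made in the cytosol and imported. The small subunit (Mrps genes, with a few exceptions) decodes the mRNA, and the large subunit (Mrpl genes) holds the peptidyl transferase centre and the exit tunnel. Some of these proteins descend from bacterial ribosomal proteins, and others are found only in mitochondrial ribosomes. The preimplantation embryo shifts toward oxidative metabolism around cavity formation, with few new mitochondria made before implantation.

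RNA was counted by CEL-Seq2, in which a unique molecular identifier (UMI) tags the 3′ end of each captured transcript, so no value was divided by gene length, and levels are given as CPM, a gene's share of the embryo's UMIs scaled to 1000000. Total UMIs per embryo ran from 70941 to 1507471. The labels give 2 library pools, 1 with the 12 embryos of 1C and 8CB and 1 with the 12 of 2CB and 4CB, so library pool and pair of stages cannot be told apart in any comparison across them. All 37 mitochondrially encoded rows were listed at 0 UMIs, so neither the ribosomal RNAs nor the mRNAs that these ribosomes translate could be set beside the proteins. Trophectoderm markers differed strongly between the pools: their summed level was 576 to 995 CPM for 1C and 691 to 1151 for 8CB, against 3004 to 5912 for 2CB and 3209 to 6321 for 4CB, and 7 of 9 markers were higher and 1 was lower in the second pool. The summed ICM and epiblast markers were 680 to 1262 CPM for 1C, 536 to 1943 for 8CB, 306 to 957 for 2CB and 245 to 791 for 4CB, and of 5 tested markers 2 were higher and 3 lower in the second pool. Of the cumulus and granulosa cell markers, Foxl2, Amh, Fshr and Cyp19a1 were at 0 and Star alone was detected, higher in the second pool by 1.24 on the log2 scale. Of 6 tested primitive endoderm markers 5 were higher and 1 lower in the second pool, and the oocyte markers, none of which passed the filter, summed to 23.1 to 96.1 CPM for 1C, 9.11 to 68.2 for 8CB, 2.54 to 21.05 for 2CB and 0 to 19.1 for 4CB. In whole embryos, fewer cells of a type and less RNA per cell cannot be told apart, and the part of cell-type makeup in the results was not tested.

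The mitochondrial ribosomal proteins together took 106168 of 9610785 UMIs, or 1.1%. Of the 78 genes, 58 were detected in all 24 embryos, and 65 passed edgeR's filter on low counts and were tested. By mean level over the 24 embryos, 31 were at or above 100 CPM, 35 between 20 and 100 CPM, and 12 below 20 CPM. The 2 most abundant stood apart from the others: Mrpl58, which encodes a peptidyl-tRNA hydrolase built into the large subunit, averaged 2085 CPM (766 to 3973), and Mrpl34, a large-subunit protein of bacterial descent, averaged 1722 CPM (447 to 3190). In all 24 embryos both were above every other member, and together they held 31.4% of the set's UMIs. Between themselves they had no fixed order, with Mrpl58 the higher of the pair in 12 of 24 embryos. Next came Mrpl17 (332 CPM), Mrpl22 (299 CPM), Mrps23 (293 CPM) and Mrpl33 (275 CPM), whose ranges over embryos overlapped. The tested members varied between embryos of a stage with a median biological coefficient of variation of 0.360, against 0.417 over all 5940 tested genes, from 0.230 for Mrpl51 to 0.592 for Mrpl44.

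The 13 members that were not tested had 0 to 238 UMIs in all. Mrpl53 had 0 UMIs, which allows up to 0.312 CPM over the 24 embryos for counting error, and Mrps34 had 1. The others were Mrps18b (13 UMIs), Mrps21 (32), Mrps36 (48), Mrpl48 (75), Mrps33 (91), Mrpl41 (93), Mrpl24 (103), Mrpl9 (125), Mrpl23 (178), Mrpl13 (185) and Mrpl46 (238). For 5 of the 78 genes the last 500 exonic bases were covered in full by exons of another annotated gene, and 4 of those 5 were among the untested (Mrpl53 under Gm42688, Mrps34 under Nme3 and Mapk8ip3, Mrps18b under Gm16279 and Mrpl24 under Rrnad1, the fifth being Mrps25 under Nr2c2), as against 9 of the 65 genes whose last 500 bases were free of any other exon. The 8 genes covered in part, up to 79.4% for Mrpl19 (393 UMIs), were all tested. Full cover was on the same strand for Mrpl53 and Mrps34, and on the opposite strand only for Mrps18b, Mrpl24 and Mrps25. The strand setting of the authors' counting is not given in the sources used here, and the part of this overlap in the low counts was not tested. Processed pseudogenes of Mrpl23, Mrpl48 and Mrps36 have rows of their own, with 99 UMIs for Mrpl23-ps1, and these genes' counts are therefore uncertain.

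The first comparison set the 12 embryos of 2CB and 4CB against the 12 of 1C and 8CB, which is also the comparison between the library pools. The set as a whole did not shift one way: 12 of the 65 tested members were higher and 10 were lower in the 2CB and 4CB embryos (edgeR quasi-likelihood test, Benjamini-Hochberg adjusted p below 0.1), 33.8% called against 55.3% of all tested genes, with 31.3% of all genes higher and 24% lower. Without a filter on low counts the shares were nearly equal, at 23.4% of 77 members and 23.8% of 23171 genes. The median log2 fold change was 0.05 over the members and 0.12 over all 5940 genes. Log2 fold changes of the called members ran from -1.29 to -0.54 and from 0.52 to 1.10, and 3 members changed by more than 1. The share of all genes that changed by more than 1 was not counted. Of 43 tested large-subunit genes 5 were higher (11.6%) and 8 lower (18.6%), with a median of -0.10. Of 22 tested small-subunit genes 7 were higher (31.8%) and 2 lower (9.09%), with a median of 0.22. The share of small-subunit genes that were higher was thus near that of all genes, the other 3 shares were below those of all genes, and the difference between the subunits was not tested. The split between proteins of bacterial descent (8 higher and 7 lower of 41, median 0.05) and proteins specific to mitochondria (4 higher and 3 lower of 24, median 0.02) had nearly equal counts each way. In 0 of the 65 members did the 2 sets of 12 embryos not overlap, whereas 5.74% of all tested genes showed no overlap, 3.54% higher and 2.21% lower.

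**Figure D1:**
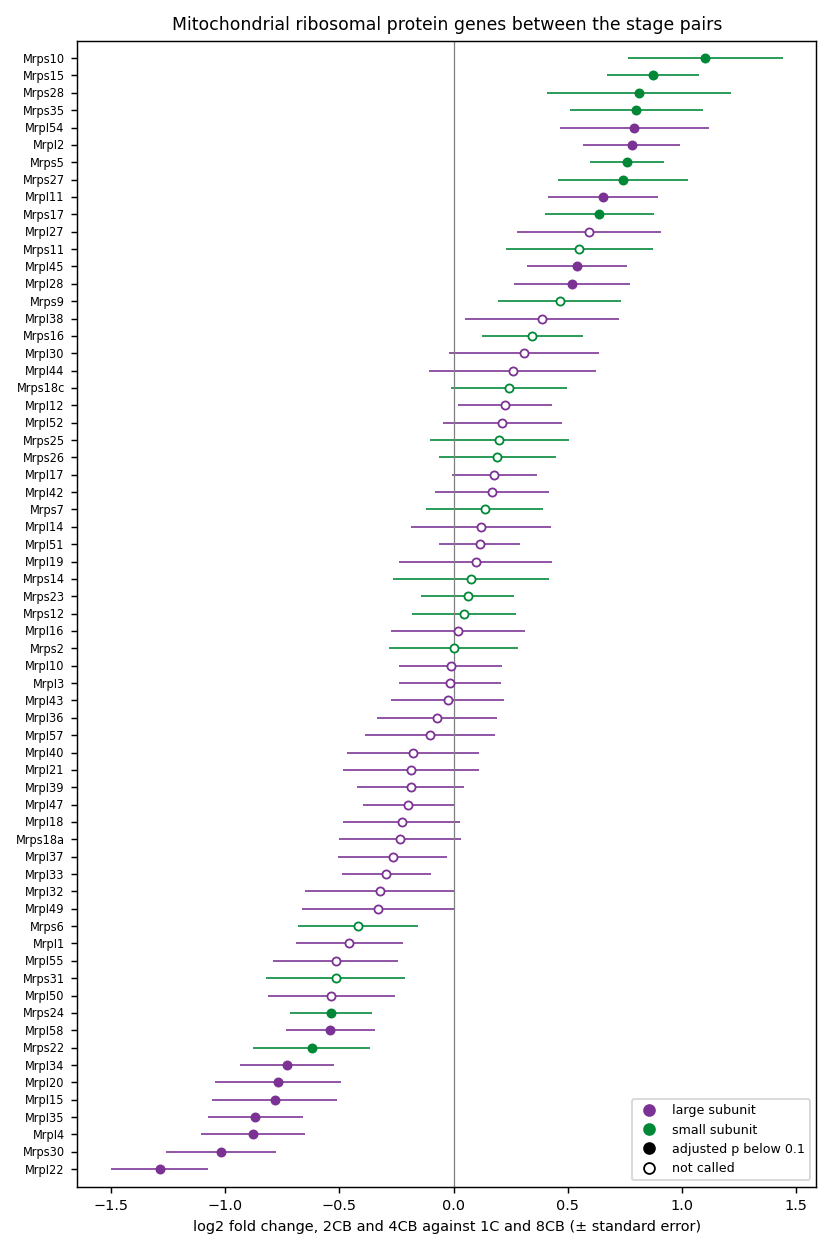
Log2 fold change of each of the 65 tested members between the library pools (positive where 2CB and 4CB embryos were higher) and its standard error, coloured by the subunit in which the protein sits and filled where the adjusted p was below 0.1. Of the 10 filled points below 0, 8 are large-subunit genes, and of the 12 above 0, 7 are small-subunit genes, with 43 large-subunit and 22 small-subunit genes tested.

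Mrpl22 (GRCm38 chr11:58171661-58179565, + strand) fell the most. It encodes uL22m, a protein that lines the exit tunnel of the large subunit. Its lowest, median and highest levels were 178, 317 and 611 CPM for 1C, 310.1, 443 and 753 for 8CB, 136, 200.4 and 339 for 2CB and 98.8, 127 and 223 for 4CB. Of the 12, 7 embryos of 2CB and 4CB lay below every 1C and 8CB embryo, and the other 5 overlapped them. This was a log2 fold change of -1.29, with a standard error (SE) of 0.21 and an adjusted p of 1.23e-05 (n = 12 against 12). It was called lower in each of the 4 pairs of stages across the pools, from -0.76 for 2CB against 1C to -1.81 for 4CB against 8CB. Among the members the only others called in all 4 pairs were Mrps5 and Mrps15, both higher. In each pair 38.4% to 41.5% of all genes were called, and the share of all genes called in all 4 was not counted.

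Mrps30 (GRCm38 chr13:118380110-118387252, - strand) has a small-subunit name, but its protein, mL65, sits in the large subunit. It read 56.6, 85.6 and 192 CPM for 1C, 64.5, 135 and 324 for 8CB, 38.1, 49.2 and 84.9 for 2CB and 54.4, 71.1 and 82.9 for 4CB. All 2CB and 4CB embryos stayed under 85 CPM, while 8 of the other 12 were above it. The log2 fold change was -1.02 (SE 0.24, adjusted p = 0.000941). Mrpl4, whose protein uL4m also reaches into the exit tunnel, had medians of 107 CPM for 1C, 212 for 8CB, 87.1 for 2CB and 80.6 for 4CB, and 8 of the 2CB and 4CB embryos were below the lowest of the others. Its log2 fold change was -0.88 (SE 0.23, adjusted p = 0.00209). The remaining falls were in Mrpl35 (-0.87, adjusted p = 0.00105), Mrpl15 (-0.78, 0.0189), Mrpl20 (-0.77, 0.0214), Mrpl34 (-0.73, 0.0041) and Mrpl58 (-0.54, 0.0234) of the large subunit, and in Mrps22 (-0.62, 0.044) and Mrps24 (-0.54, 0.0144) of the small subunit. Mrps24 (uS3m) borders the mRNA entry channel, and Mrpl35, Mrpl15, Mrpl20 and Mrpl34 have bacterial counterparts. By pair of stages, Mrpl4, Mrpl20, Mrpl34 and Mrps22 were called lower in 2CB and in 4CB against 8CB, but in neither against 1C. Mrpl58 and Mrps24 were called only in the pairs with 4CB, and Mrpl15 only in 4CB against 1C. Mrps22 lost its call, at -0.43, with every embryo thinned to the lowest total. The 2 most abundant members, Mrpl34 and Mrpl58, were thus both among the falls. For Mrpl34 the stage means were 1736 CPM for 1C, 2555 for 8CB, 1426 for 2CB and 1172 for 4CB, and for Mrpl58 they were 2670 CPM for 1C, 2235 for 8CB, 1961 for 2CB and 1472 for 4CB, with overlap between the pools for both.

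Among the rises, Mrps10 (GRCm38 chr17:47368887-47381417, + strand), a protein of the small-subunit head, had the largest fold change. Its lowest, median and highest levels were 20.2, 40.8 and 75.8 CPM for 1C, 15.2, 36.7 and 101 for 8CB, 16.3, 68.4 and 137 for 2CB and 51.8, 132 and 193 for 4CB. The 4CB embryos were the high ones, with 5 of 6 above the highest 1C or 8CB embryo, and the 2CB embryos ran from 16.3 to 137 CPM, across nearly the range of the other pool. The log2 fold change was 1.10 (SE 0.34, adjusted p = 0.00838), and of the 4 pairs across the pools only the 2 with 4CB were called.

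Mrps15 (GRCm38 chr4:126046925-126055532, + strand), which in bacteria is an early binder in small-subunit assembly, and Mrps5 (GRCm38 chr2:127587222-127606829, + strand), which lies near the mRNA entry site, were called higher in 2CB and in 4CB against either stage of the other pool. Mrps15 read 96.1, 190.1 and 243 CPM for 1C, 111, 144 and 338 for 8CB, 254, 309 and 418 for 2CB and 234, 270.4 and 486 for 4CB, a log2 fold change of 0.87 (SE 0.20, adjusted p = 0.000713). Without 1 high 8CB embryo at 338 CPM, all 1C and 8CB embryos were at or below 243 CPM, and 10 of the 12 in the other pool were above 243 CPM. Mrps5 read 117, 184 and 230.4 CPM for 1C, 98.3, 138 and 211 for 8CB, 200.3, 260.2 and 338 for 2CB and 246, 260.3 and 364 for 4CB, a log2 fold change of 0.76 (SE 0.16, adjusted p = 0.000298). Every 4CB embryo exceeded every 1C and 8CB embryo for Mrps5, and 3 of 6 2CB embryos did. The other rises were in Mrps28 (0.81, adjusted p = 0.0954), Mrps35 (0.80, 0.0237), Mrps27 (0.74, 0.0322) and Mrps17 (0.64, 0.0269) of the small subunit and in Mrpl54 (0.79, 0.0441), Mrpl2 (0.78, 0.00325), Mrpl11 (0.65, 0.0245), Mrpl45 (0.54, 0.0422) and Mrpl28 (0.52, 0.091) of the large one. Mrpl2 lies at the peptidyl transferase centre and Mrpl11 at the base of the factor-binding stalk. Mrps28 was the weakest of the 20 members named by rule, with 268 UMIs in all, and lost its call when any 1 of 14 embryos was left out, at log2 fold changes of 0.68 to 0.85. Mrpl28, outside that rule, was as fragile: it kept its call in 13 of 33 alternatives and likewise lost it on leaving out any 1 of 14 embryos. Over all 33 alternatives its log2 fold change was 0.39 to 0.60. Mrps17 fell to 0.32 and lost its call with every embryo thinned to the lowest total.

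**Figure D2:**
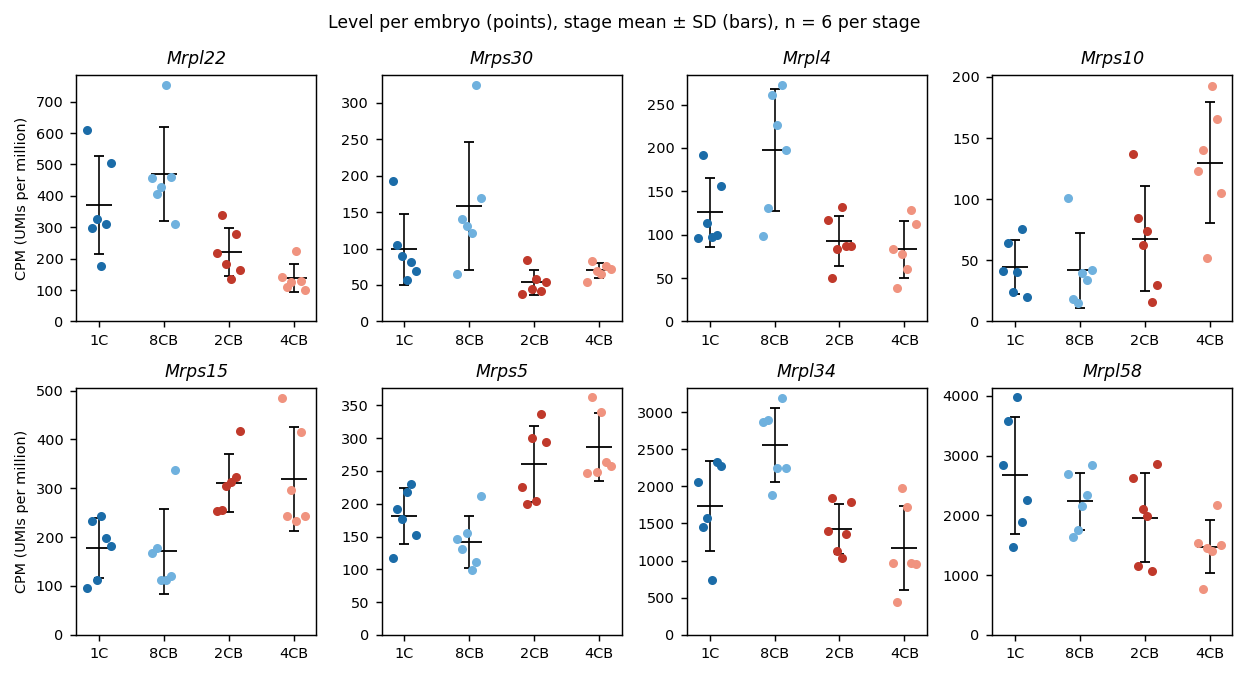
CPM of 8 members in every embryo, with the mean ± SD of each stage. Mrpl22, Mrps30, Mrpl4 and the 2 most abundant members, Mrpl34 and Mrpl58, were lower in 2CB and 4CB, and Mrps10, Mrps15 and Mrps5 were higher, with overlap between the pools in each panel.

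The start regions of 1 fall and 1 rise are shown so that the motifs searched can be read in place. They are taken from RefSeq on GRCm38.p6, 5′ to 3′ in the direction of the gene, as the 200 bases before the annotated start, for the largest fall and for the largest rise whose stretch was free of annotated exons. Capitals mark matches to any of 6 motifs on either strand: NRF1 (GCGCA, any base, then GCGC), GABP (CCGGAAGT), YY1 (AAGATGGC), the CCAAT box (CCAAT), the E-box (CACGTG, the same on both strands) and the GC box (GGGCGG).
Mrpl22, chr11:58171461-58171660, + strand: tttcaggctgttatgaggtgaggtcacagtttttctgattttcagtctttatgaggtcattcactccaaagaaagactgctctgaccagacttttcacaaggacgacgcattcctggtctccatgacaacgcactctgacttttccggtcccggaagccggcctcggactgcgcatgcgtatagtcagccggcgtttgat
Mrps15, chr4:126046725-126046924, + strand: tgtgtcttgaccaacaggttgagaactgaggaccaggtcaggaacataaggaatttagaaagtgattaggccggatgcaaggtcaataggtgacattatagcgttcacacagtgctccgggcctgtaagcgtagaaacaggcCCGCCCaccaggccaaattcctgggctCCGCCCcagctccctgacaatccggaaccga
The Mrpl22 stretch held no match, and the Mrps15 stretch held a pair of GC boxes on the opposite strand. Promoters of 300 bases, 250 before to 50 after the start, were on hand for 69 members. The NRF1 motif was in 18.8% of these, against 7.45% of 16522 protein-coding genes and 13.8% of the tested ones with a promoter. The GABP motif was in 17.4% against 5.94% and 11.8%, and the YY1 motif in 17.4% against 3.64% and 7.04%. CCAAT was in 39.1% against 42.1% and 42.7%, the E-box in 7.25% against 9.18% and 12.5%, and the GC box in 49.3% against 51% and 73%. Among called members with a promoter, NRF1 was in 1 of 9 higher and 0 of 8 lower ones, GABP in 1 of 9 and 1 of 8, YY1 in 1 of 9 and 2 of 8, and CCAAT in 6 of 9 and 2 of 8, counts too small to compare.

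Many members share their start region with a neighbour that is transcribed the other way. For 26 of the 78 (33.3%) another protein-coding gene starts within 1000 bases on the opposite strand, against 9.51% of 22028 protein-coding genes, expressed here or not. The share among the tested genes alone was not counted. In 13 of these pairs both genes were tested. The member was called in 3 (23.1%) and the neighbour in 6 (46.2%), beside 55.3% of all tested genes, and in 0 pairs were both called. Intervals between both starts are printed here only for pairs with either gene called, where they could be read free of annotated exons. They run in the direction of the member, with the same capitals, to show their length.
Mrpl2 with Klc4, chr17:46646081-46646220, + strand: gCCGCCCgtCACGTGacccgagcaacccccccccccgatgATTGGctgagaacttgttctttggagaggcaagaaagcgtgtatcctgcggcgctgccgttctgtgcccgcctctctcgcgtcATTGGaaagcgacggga
Mrpl49 with Fau, chr19:6057756-6057843, - strand: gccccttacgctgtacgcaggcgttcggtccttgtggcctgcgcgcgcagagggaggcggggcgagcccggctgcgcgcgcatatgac
Mrpl51 with Ncapd2, chr6:125191702-125191800, + strand: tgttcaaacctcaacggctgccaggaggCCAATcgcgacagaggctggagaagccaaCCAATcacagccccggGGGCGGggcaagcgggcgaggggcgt
Mrps18c with Helq, chr5:100798601-100798626, + strand: gACTTCCGGcccgggaagcgcgggaa
Mrps27 with Ptcd2, chr13:99344706-99344785, + strand: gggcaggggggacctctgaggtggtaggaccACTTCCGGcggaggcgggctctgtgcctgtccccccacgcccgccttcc
Mrpl2 rose by 0.78 on the log2 scale while Klc4, a kinesin light chain gene, was at 0.24 (adjusted p = 0.527). Mrpl36, which starts 29 bases from the complex I gene Ndufs6, was at -0.07 (adjusted p = 0.845), and Ndufs6 rose by 1.01 (adjusted p = 0.000278). Mrps18c was at 0.24 (adjusted p = 0.453), with Helq, a DNA helicase gene starting 29 bases away, lower at -0.93 (adjusted p = 0.0537). Mrpl40 was at -0.18 (adjusted p = 0.639), and the histone chaperone gene Hira was lower at -1.34 (adjusted p = 0.00641). Likewise Mrpl44 was at 0.26 (adjusted p = 0.585) beside Wdfy1 at 1.17 (adjusted p = 0.000441), and Mrpl51 at 0.11 (adjusted p = 0.618) beside the condensin gene Ncapd2 at 0.56 (adjusted p = 0.0171). Mrpl49 and Fau, which encodes a cytosolic ribosomal protein, had the same log2 fold change of -0.33, but only Fau passed the test (adjusted p = 0.435 and 0.0838). Mrps27 (0.74) and Mrpl54 (0.79) were called without their neighbours Ptcd2 (0.45, adjusted p = 0.249) and Apba3 (-0.30, adjusted p = 0.594). These 9 pairs were singled out after their values were seen, as those in which either gene was called, and the difference between the genes of a pair was not tested.

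Levels summed over the 78 members overlapped between all stages as CPM of the plain total. The sum ran from 9068 to 12001 CPM for 1C, from 11062 to 13318 for 8CB, from 9559 to 12428 for 2CB and from 6731 to 11487 for 4CB, where 4CB replicate 2 was the lowest of all embryos. In the same order of stages, the means ± SD were 11198 ± 1113, 12444 ± 808, 10956 ± 1173 and 9670 ± 1592 (n = 6 each), and neighbouring stages by level (8CB, 1C, 2CB, 4CB) overlapped. On the TMM-scaled CPM, the scaling used in the tests, 8CB (11616 to 14345) lay above 4CB (6645 to 10908) without overlap. The balance between the subunits differed more than the sum. Large-subunit genes together were 3.35 to 4.85 times the small-subunit genes in 1C and 3.40 to 5.70 times in 8CB, but 2.39 to 3.26 times in 2CB and 1.67 to 3.18 times in 4CB, so that the 2 pools did not overlap. With every embryo thinned to the lowest total the ranges met, at 3.08 to 5.82 times in the first pool and 1.62 to 3.28 times in the second. Mrpl34 and Mrpl58 made up much of the large-subunit sum. Without them it was 1.73 to 2.41 for 1C, 1.81 to 2.75 for 8CB, 1.51 to 1.79 for 2CB and 1.19 to 1.80 for 4CB, and the pools overlapped slightly. The small-subunit sum was 1993 to 2634 CPM for 1C, 1876 to 2674 for 8CB, 2531 to 3137 for 2CB and 2458 to 3401 for 4CB. No test was made of these sums, which describe a set chosen with results known.

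**Figure D3:**
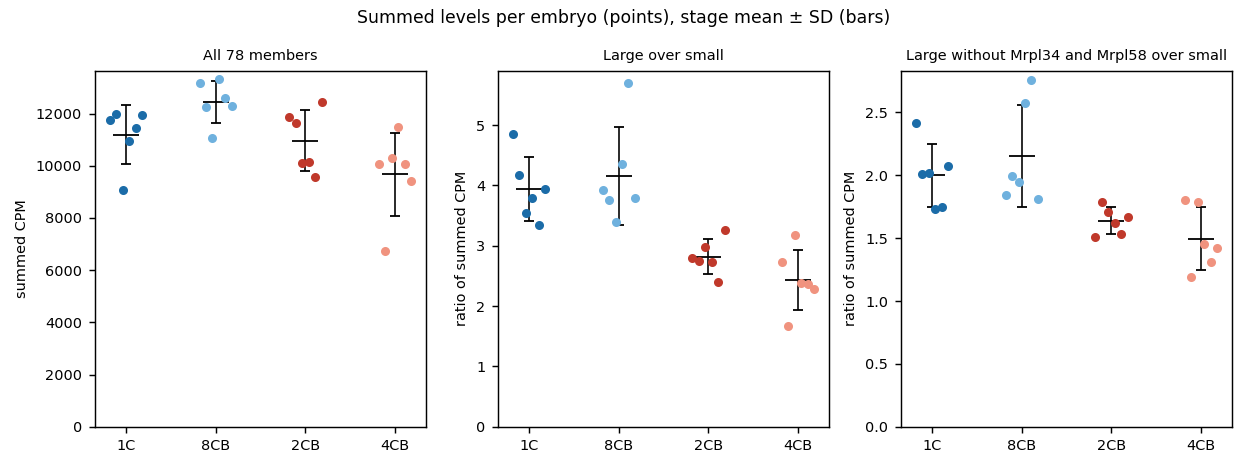
Summed CPM of all 78 members, the ratio of the large-subunit to the small-subunit sum, and the same ratio without Mrpl34 and Mrpl58, in each embryo, with the mean ± SD of each stage. The ratio was at least 3.35 in every 1C and 8CB embryo and at most 3.26 in every 2CB and 4CB embryo, while the plotted sum, on the plain total, overlapped between all stages (on the TMM scale 8CB and 4CB did not overlap).

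Members with a second role or an unusual place were looked at separately. The 3 Mrps18 genes are paralogs that occupy different sites: Mrps18a is part of the large subunit (mL66), and Mrps18b and Mrps18c are in the small one. Mrps18c was abundant, with stage medians of 196 CPM for 1C, 280.5 for 8CB, 322 for 2CB and 277 for 4CB, Mrps18a was at 49.1, 52.6, 57.7 and 37.7 CPM, and Mrps18b was found in 5 embryos only. Neither Mrps18a (-0.24, SE 0.27, adjusted p = 0.487) nor Mrps18c (0.24, SE 0.25) passed the test. Mrpl12, a stalk protein that also binds the mitochondrial RNA polymerase, was at 102, 102, 138 and 124 CPM in the median of 1C, 8CB, 2CB and 4CB (log2 fold change 0.23, SE 0.21, adjusted p = 0.383). Mrps36, now placed in the 2-oxoglutarate dehydrogenase complex rather than in the ribosome, had 0 UMIs in all 6 1C embryos, which allows up to 2.07 CPM over that group for counting error, and averaged 3.45 CPM in 8CB, 4.71 in 2CB and 8.46 in 4CB (5.05 without 4CB replicate 2). Mrpl41, also studied as a cell death regulator, averaged 2.11 CPM for 1C, 4.85 for 8CB (2.41 without 8CB replicate 5), 9.80 for 2CB and 9.12 for 4CB, and was likewise too low for the test. No 1C embryo held more than 1 UMI of Mrpl41.

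Across all 4 stages, 17 of the 65 members differed in the edgeR test (26.2%), against 47.1% of all tested genes. Of these, 16 were also called between the pools, and the other was Mrps6 (bS6m), with stage medians of 52.2 CPM for 1C, 24.8 for 8CB, 43.0 for 2CB and 24.5 for 4CB (adjusted p = 0.0763). Every 1C embryo (40.7 to 61.8 CPM) lay above every 4CB embryo (6.38 to 33.9 CPM), while 2CB and 8CB overlapped both, and of the 4 pairs across the pools Mrps6 was called only as lower in 4CB than in 1C (-1.15, SE 0.38, adjusted p = 0.0205). By pair of stages across the pools, 9 members were called for 2CB against 1C, 7 higher and 2 lower, where 41.5% of all genes were called (24% higher, 17.5% lower). For 4CB against 1C there were 11, 5 higher and 6 lower, beside 40.9% of all genes (23.5% higher, 17.5% lower). For 2CB against 8CB there were 15, 6 higher and 9 lower, beside 38.4% (22% higher, 16.4% lower), and for 4CB against 8CB 13, 3 higher and 10 lower, beside 40.2% (23.2% higher, 17% lower). These comparisons share embryos and are given side by side only.

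**Figure D4:**
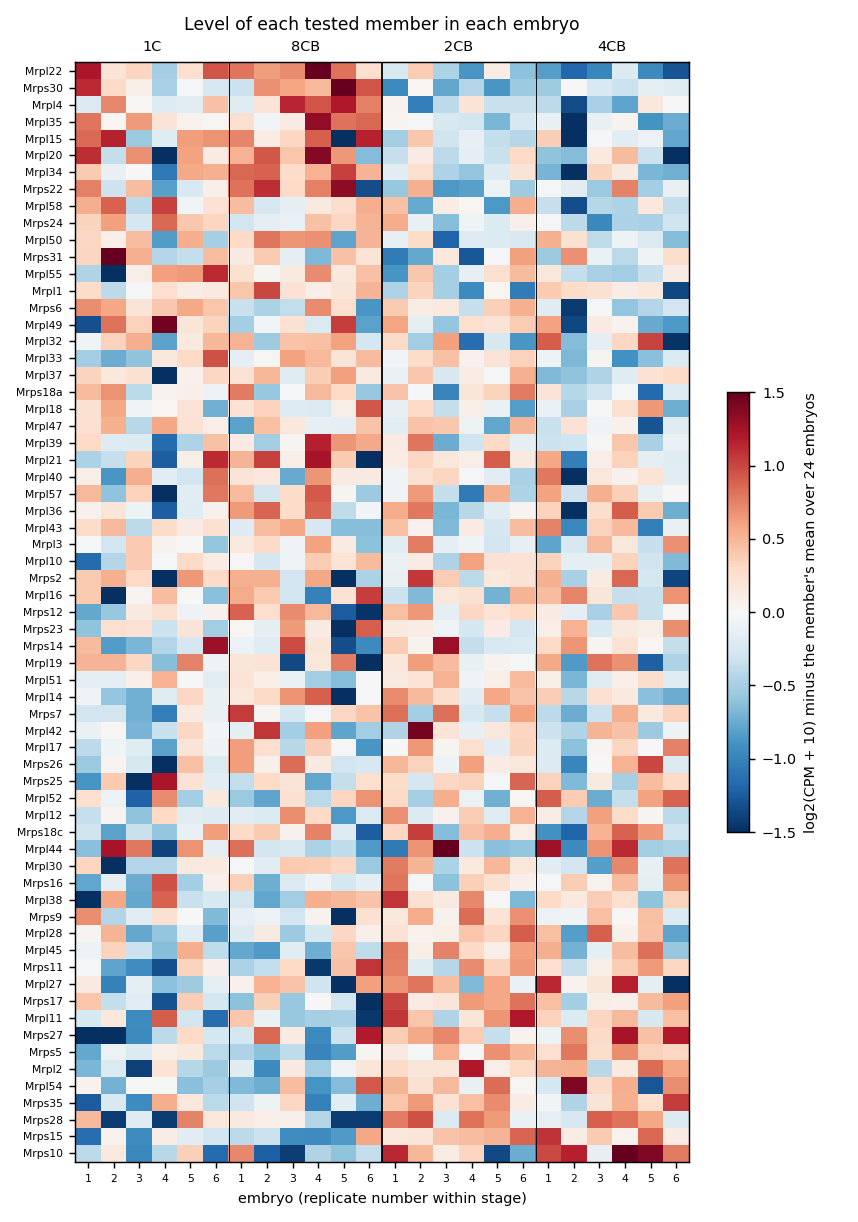
Level of each tested member in each of the 24 embryos, as log2(CPM + 10) minus the mean of that gene over all embryos, with colours capped at 1.5 either way and genes in the order of their fold change between the pools. The top and bottom rows change at the line between 8CB and 2CB, and the middle rows show no step there.

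Within a library pool the stages could be compared without that confounder. In 8CB against 1C, 0 of 65 members were called by edgeR, with 0% of all genes called. At an unadjusted p below 0.05 there were 2 members (3.08%), fewer than the 9.26% of all genes, and DESeq2 called 0 members and 43 genes in all. Those 2 were Mrps27, a pentatricopeptide repeat protein of the small subunit, with medians of 79.8 CPM for 1C and 125 for 8CB (log2 fold change 0.94, SE 0.42, adjusted p = 0.478), and Mrpl4, with medians of 107 and 212 CPM (0.66, SE 0.32, adjusted p = 0.522), by edgeR. For both the ranges of the 2 stages overlapped. The median log2 fold change of the members was 0.21, against 0.00 over all genes, and 39 of 65 were above 0 (50.1% of all genes). By subunit, 30 of 43 large-subunit members were above 0 (median 0.23), against 9 of 22 in the small subunit (median -0.06). The median standard error of a member in this comparison was 0.37.

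In 4CB against 2CB, 0 of 65 members were called by edgeR, with 0.0337% of all genes called. At an unadjusted p below 0.05 there were 3 members (4.62%), about the share of all genes (4.43%), and DESeq2 called 0 members and 10 genes in all. Mrpl33 had medians of 309 CPM for 2CB and 195 for 4CB (log2 fold change -0.64, SE 0.27), Mrps6 had 43.0 and 24.5 CPM (-0.84, SE 0.37) and Mrpl22 had 200.4 and 127 CPM (-0.69, SE 0.30), each with an edgeR adjusted p of 1.00 and overlapping ranges. The median of the members was -0.20, against -0.01 over all genes, and 44 of 65 were below 0, while 49% of all genes were above 0. Here both subunits lay low, at -0.20 for the large and -0.20 for the small one. Over the alternatives these medians ranged from 0.12 to 0.26 for 8CB against 1C and from -0.32 to -0.11 for 4CB against 2CB, though many alternatives, such as leaving out an embryo of the other pool, could hardly move them. The difference between the 2CB to 1C and the 4CB to 8CB change, in which the pool cancels, gave 0 called members in edgeR, with 0% of all genes called, 5 members at an unadjusted p below 0.05 (7.69%, against 8.96% of all genes) and a median of 0.27 (0.03 over all genes). DESeq2 was not run on this difference.

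Partners of the mitochondrial ribosome were read from lists of known components, whose counts stand beside 31.3% of all tested genes higher and 24% lower in the second pool. Of 5 ribosomal proteins with other names, Dap3, the GTP-binding protein mS29 of the small subunit, was higher in 2CB and 4CB, with stage means of 48.7 CPM for 1C, 79.4 for 8CB, 134 for 2CB and 122 for 4CB (log2 fold change 1.09, SE 0.22, adjusted p = 0.000194), and Gadd45gip1, a large-subunit protein, was lower (-0.50, SE 0.19, adjusted p = 0.0314). Of 26 ribosome assembly factors 7 were tested and 2 were higher, Fastkd2 (1.29, adjusted p = 0.00573) and Dhx30 (0.55, 0.0884). Of 16 genes listed with the translation factors 8 were tested and 4 were higher, among them the elongation factor gene Tufm (0.65, adjusted p = 0.0815). Also among the 4 were Letm1 (1.38, 8.69e-05) and the membrane insertase gene Oxa1l (0.81, 0.0522), which are not translation factors themselves. Of the mitochondrial aminoacyl-tRNA synthetases 9 were tested, with Tars2 (1.08, 0.0118) and Ears2 (0.99, 0.0303) higher and Wars2 lower (-2.09, 1.42e-06).

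Among genes of mitochondrial DNA and RNA upkeep, 10 were tested. Lrpprc, which stabilizes mitochondrial mRNAs, was higher (1.08, adjusted p = 0.000238), as was Hsd17b10 (1.63, 5.21e-06), and the RNA polymerase gene Polrmt was lower (-0.73, 0.0928). Tfam, the mitochondrial DNA packaging factor, had 227 UMIs and was not tested. Of 12 regulators of nuclear genes for mitochondria 8 were tested, with 2 higher and 2 lower. Of the factors named for the searched motifs, Nrf1 did not pass the test (-0.06, SE 0.26, adjusted p = 0.864), and Gabpa (-0.94, 0.0164) and Yy1 (-1.11, 4.78e-05) were lower in 2CB and 4CB, while the coactivator gene Ppargc1b (3.09, 2.74e-06) and Mycn (4.76, 3.97e-09) were higher and did not overlap between the pools. Median log2 fold changes, beside 0.12 over all genes, were 0.30 for the assembly factors and 0.61 for the translation factor list, Letm1 and Oxa1l included. For the synthetases the median was 0.24, for the upkeep genes 0.34 and for the regulators 0.06.

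The nearest large sets gave other counts. Of 62 tested nuclear-encoded subunits of oxidative phosphorylation, 40 were higher and 2 lower in the second pool, and the median was 0.75. Of 68 tested cytosolic ribosomal proteins, 6 were higher and 26 lower, with a median of -0.19. The members, with 12 higher, 10 lower and a median of 0.05, lay between. The difference between these sets was not tested.

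**Figure D5:**
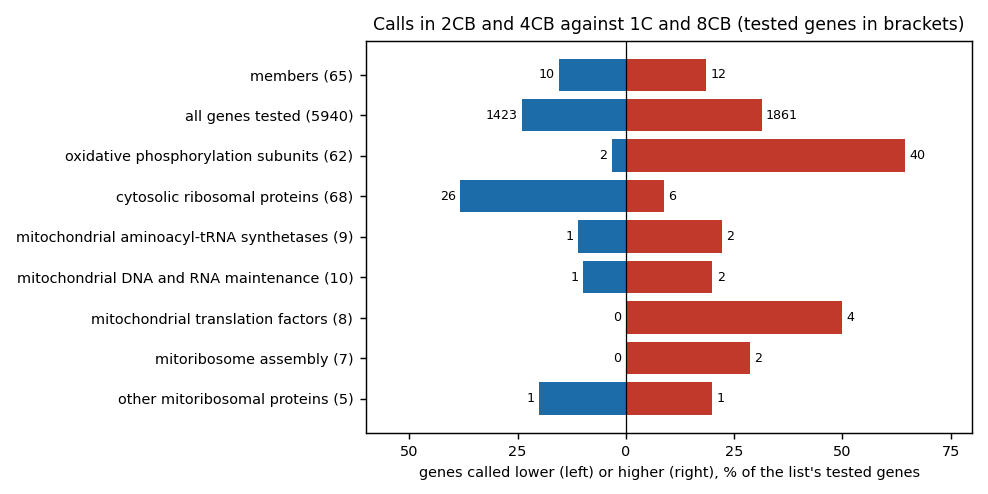
Share of each list's tested genes that was called higher (right) or lower (left) in the 2CB and 4CB embryos relative to the other pool, with the number of genes at each bar. The members split 12 to 10, the oxidative phosphorylation subunits 40 to 2 and the cytosolic ribosomal proteins 6 to 26.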

How the data were processed

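The authors made CEL-Seq2 libraries of single embryos, sequenced them on an Illumina HiSeq, aligned the reads to GRCm38 with HISAT2 2.2.6 and counted with HTSeq 0.6.1, per the paper and the labels, with DESeq2 1.10.1 for their later tests. The deposited values are whole-number UMI counts per gene and embryo, before normalization. The largest was 53029, more than a 6-base UMI can tell apart, so duplicates remain possible and intervals and floors cover counting error only. The annotation release and strand setting are not given in the sources used here. Besides these, 24 columns of per-embryo values were not used. Of 52366 genes, 51719 were given a symbol from GENCODE M21.

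The counts of all 24 embryos were scaled by TMM (edgeR 4.0.16, factors 0.928 to 1.07), filtered with filterByExpr over the 4 stages (5940 genes kept, 65 of them members) and tested by quasi-likelihood F tests, the model having 1 mean for each stage. Genes were called at a Benjamini-Hochberg adjusted p below 0.1 over all 5940. Standard errors were derived from the F statistic. Alternatives used DESeq2 1.42.0, other size factors and filters, thinning of each embryo to 70941 UMIs, a threshold of 0.05, the replicate number as a block, fits on the embryos compared, and each embryo left out. The same replicate number did not pair embryos: over 36 pairs the correlation of deviations averaged -0.015. A floor of 3 counts was used for a gene at 0. R was 4.3.3 and Python 3.11.15.

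The members and the lists were chosen with earlier results of these data known. Members named were the 10 largest called changes each way between the pools, the members called within a pool or the 2 lowest p-values there, 8 members with other roles or places, the 6 most abundant, and those not tested, and in each list up to 2 called genes each way plus 5 fixed genes. Mrpl45, Mrpl28, the third member with a low p in 4CB against 2CB and the neighbours of members were named in addition after their values were seen. Subunit and descent follow the unified names of ribosomal proteins.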

Additional observations from a re-analysis of the deposited data

Results flagged for a closer look

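Groups of 6 embryos, 168 in all, were looked at for 40 named members, the sum over all members and the large-to-small ratio. Of these, 23 held an embryo far from the other 5 by Dixon's criterion. For normally distributed values chance gives this in about 1 group in 20. Rare members depart from that, since a group in which a lone embryo held any UMI was always flagged. The 23 are therefore not to be read against that rate. Among called members, the highest embryo stood apart for Mrpl22 in 4CB replicate 4 (222.9 CPM) and 8CB replicate 4 (753.3 CPM), for Mrps30 in 1C replicate 1 (192.1 CPM), for Mrpl15 in 2CB replicate 2 (163.2 CPM) and for Mrps22 in 4CB replicate 4 (210.6 CPM). It also did so for Mrps10 in 8CB replicate 1 (100.9 CPM), for Mrps15 in 8CB replicate 6 (338.3 CPM) and for Mrpl2 in 2CB replicate 4 (382.3 CPM). None of these members lost its call when that embryo was left out. The sum over all members was low in 1C replicate 3 (9068 CPM).

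Most other cases were single embryos with a few UMIs of a rare member. In 1C they were Mrps18b in replicate 6 (8.658 CPM), Mrpl9 in replicate 4 (48.55 CPM), Mrpl46 in replicate 2 (64.13 CPM) and Mrpl23 in replicate 2 (80.17 CPM), and for the abundant Mrps18c replicate 6 (383.9 CPM). In 2CB there was Mrpl46 in replicate 4 (60.36 CPM). In 4CB they were Mrps36 in replicate 2 (25.52 CPM), Mrps21 in replicate 4 (1.769 CPM) and Mrpl48 in replicate 6 (19.77 CPM). In 8CB they were Mrps18b in replicate 3 (3.037 CPM), Mrps34 in replicate 2 (3.113 CPM) and, all in replicate 5, Mrpl41 (17.06 CPM), Mrpl24 (85.28 CPM) and Mrps21 (25.59 CPM).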

How the results depend on the processing

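The number of members called between the pools was 22 (33.8%, against 55.3% of all genes). Without a filter on low counts it was 18 (8 higher and 10 lower, of 77 members with at least 1 UMI, 23.4% against 23.8% of all genes). It reached 24 with DESeq2 (14 and 10, 36.9% against 57.2%) or with a filter of 5 UMIs in 12 embryos (11 and 13, 35.8% against 51.5%). Over the embryos left out in turn it ran from 20 to 24 (30.8% to 36.9%, against 53.5% to 55.6%). It was 19 after thinning to the lowest total (29.2% against 43.6%) and 23 with DESeq2's size factors in edgeR (35.4% against 55.8%). Leaving out 1C replicates 4 and 5, which earlier results had placed nearest to the other pool, gave 23 (35.4% against 55.5%). Replicate numbers are shared across stages without any stated pairing. With the number as a block, 21 members were called between the pools (32.3%, against 53.6% of all genes) and 14 among the stages (21.5% against 43.8%), and Mrps28 and Mrpl28 lost their calls. Among the 4 stages, 17 members were called (26.2%, against 47.1% of all genes), and 11 at an adjusted p below 0.05 (16.9% against 39.8%). With an embryo left out 12 to 20 were called, 18.5% to 30.8% of members against 44.7% to 48.5% of all genes. Within the pools all of these alternatives gave 0. The member median between the pools ranged from -0.03 to 0.09 and fell below 0 without 1C replicate 2 or 8CB replicate 5. Of the members named with a fold change, only Mrpl36 and Mrpl44, neither of them called, changed sign, each under 2 alternatives. Mrps28 lost its call at an adjusted p below 0.05 (0.81), without a filter, with the filter of 5 UMIs, after thinning, with the block and when 1C replicate 2, 3, 4 or 6, 2CB replicate 1, 2, 4 or 5, 4CB replicate 3, 4 or 5, or 8CB replicate 4, 5 or 6 was left out. Mrpl28 lost its call under the same 5 settings, without 1C replicates 4 and 5, and without 1C replicate 3, 4, 5 or 6, 2CB replicate 1, 4, 5 or 6, 4CB replicate 1, 3 or 5, or 8CB replicate 1, 3 or 4. Mrps22 (-0.43) and Mrps17 (0.32) lost theirs after thinning, and Mrps35, Mrpl54, Mrpl45 and Mrps17 without a filter. Between the pools Mrpl33 was called lower only after thinning (-0.47). Other members not called in the main fit gained a call more often: Mrpl50 under 7 of 33 alternatives, Mrpl1 and Mrpl55 under 6 each, Mrpl27 under 4 and Mrps31 under 3. Causes were not tested. Depth limits the precision for the 12 members that averaged below 20 CPM.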
